A study of Mus musculus with 45 samples.

Results

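A set of 10 genes of polyamine synthesis and of the methionine salvage pathway was followed across mouse mammary tumour cell lines that differ in metastatic potential, in control medium and after 6 h without cysteine and cystine. They are Odc1, Azin1, Amd1, Srm, Sms, Sat1, Mri1, Apip, Enoph1 and Adi1, taken by their symbols from the 28454 genes of the count table, and all 10 passed the filter on low counts in every comparison. Ornithine decarboxylase (ODC1) makes putrescine from ornithine, and S-adenosylmethionine decarboxylase (AMD1) makes the aminopropyl donor that spermidine synthase (SRM) and spermine synthase (SMS) add to putrescine and to spermidine. Each aminopropyl transfer releases methylthioadenosine, which MTAP cleaves and which MRI1, APIP, ENOPH1 and ADI1 carry, step by step, back towards methionine, itself a source of cysteine through transsulfuration. SAT1 acetylates spermidine and spermine for export or back-conversion, and ornithine decarboxylase is a classical target of MYC and is itself held in check by antizymes, which the antizyme inhibitor AZIN1 sequesters.

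Messenger RNA was sequenced from 45 libraries, 3 cultures of each of 15 combinations of line and medium. MYAZ16.1e, MYAZ12.3i and MYAZ6.6g were isolated from mammary tumours of mice that carry cMYC under the MMTV promoter, and Myc310 is a single line from such a mouse with several tumours. LM1, LM2 and LM3 were recovered from lungs after Myc310 cells had been placed in the mammary fat pad of FVB/NJ mice. LM1-LM came from lungs after injection of LM1 cells. LM2-LM and LM3-LM are described as its biological replicates, without a separate account of the cells injected. All LM and LM-LM lines thus descend from Myc310. The 30 libraries of these 10 lines were in control medium, 12 more came from deprived cultures of MYAZ16.1e and of Myc310, LM1 and LM1-LM, and 3 came from MYAZ12.3i cells labelled NDI1, in control medium; the labels write these names as MYAZ16_1e and LM1_LM. All lines carry the MYC transgene and grew with serum, insulin, hydrocortisone and EGF. The design text calls the cultures of a line technical replicates, so the p-values for deprivation and NDI1 measure the spread between cultures of a line. Those between subtypes mix that spread with the spread between lines. They count the 3 cultures of a line as separate samples and can therefore be too small for a comparison of lines. Under deprivation each subtype was represented by 1 line.

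Levels are given as CPM, counts scaled to the same total of counts on genes in every library, with TMM scaling of the 45 libraries, and they were compared between groups for the same gene, never between genes. Total counts on genes lay between 19517859 and 29019988 per library, and the cultures of every group differed by more than sampling noise. The epithelial keratins Krt8 and Krt18 were present in every library, at 217 to 1731 CPM and 94.0 to 550.0 CPM, while Epcam was at 0 in 23 libraries and Cdh1 at 0 in 33, with maxima of 0.802 and 0.284 CPM. The leukocyte markers Ptprc and Lyz2, the alveolar markers Sftpc and Sftpb (though not Ager, at 0.0504 to 1.97 CPM) and the fibroblast marker Dcn stayed at or below 0.233 CPM in all libraries. The summed leukocyte markers, almost all of it Cd68, were at 4.03 to 6.26 CPM in the MYAZ cultures in control medium and at 8.72 to 18.7 CPM in those of the Myc310 lineage, and the summed endothelial markers at 3.52 to 6.56 CPM and 0 to 0.890 CPM. The summed fibroblast markers ranged from 1.18 to 54.4 CPM among the 10 lines in control medium, highest in MYAZ12.3i, and the summed epithelial markers from 311 to 1079 CPM in MYAZ, lowest in MYAZ12.3i, and from 1006 to 2275 CPM in the Myc310 lineage. The epithelial sums were higher in deprived than in control cultures of each line, as in LM1-LM, at 1309 to 1337 CPM against 1006 to 1051 CPM. Deprived cultures also had higher endothelial sums in LM1 (0.320 to 0.325 against 0 to 0.258 CPM), higher leukocyte sums in Myc310 (11.1 to 12.8 against 8.72 to 9.55 CPM) and LM1 (11.3 to 12.8 against 8.92 to 9.12 CPM) and higher fibroblast sums in MYAZ16.1e (10.1 to 11.2 against 7.16 to 9.48 CPM) and Myc310 (2.15 to 2.49 against 1.18 to 1.54 CPM), with overlapping ranges in the other lines. The alveolar sum, mostly Ager, was lower in deprived cultures of MYAZ16.1e (0.602 to 0.698 against 1.102 to 1.90 CPM), LM1 (0.184 to 0.465 against 0.497 to 0.985 CPM) and LM1-LM (0.0504 to 0.306 against 0.374 to 0.606 CPM). The part of these differences in the results below was not tested, and fewer cells of a kind and less RNA per cell cannot be told apart in such libraries.

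Amd1 counts need care, because the mouse genome holds a near-identical copy, Amd2. Of all 100-base windows of the longest Amd1 transcript, 76.4% occur unchanged in another gene, most of them in Amd2, and the coding sequences of 1002 bases differ at 1 position, G796C counted from the first base of the start codon with the Amd1 base first. The stretch around it, positions 746 to 846 of the coding sequence in the GENCODE mouse release for GRCm38, shows how little separates the genes, with the differing base in capitals.
Amd1: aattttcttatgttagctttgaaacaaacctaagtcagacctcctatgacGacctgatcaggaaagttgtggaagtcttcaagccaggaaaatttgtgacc
Amd2: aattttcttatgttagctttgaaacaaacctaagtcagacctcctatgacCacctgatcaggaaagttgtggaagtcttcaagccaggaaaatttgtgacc
The share of shared windows was 27.7% for Sms (a processed copy, Sms-ps), 19.6% for Odc1 and 0.376% for Sat1, and none was found for the other 6 genes. The copies carried 8.06% to 11.5% of the summed counts of Amd1 and its copies, 7.11% to 14.8% for Sms, 8.88% to 10.5% for Odc1 and at most 0.0814% for Sat1. In GRCm38, Amd1 lies at chr10:40287458-40302186, Odc1 at chr12:17544794-17551505, Srm at chr4:148591503-148594993, Sms at chrX:157443855-157492287 and Sat1 at chrX:155213132-155216449. Azin1, at chr15:38487427-38519266, overlaps an antisense gene, Gm49077, and a microRNA gene, Mir6951. Small RNA genes also overlap Odc1 (Gm22748), Enoph1 (Gm26363) and Adi1 (Mir6937). Mri1 lies at chr8:84249906-84257326, Apip at chr2:103073675-103092644, Enoph1 at chr5:100039985-100068760 and Adi1 at chr12:28675231-28682175.

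Since several of the genes moved together, their promoters were searched, on both strands, for CACGTG, the E-box bound by MYC and its partner MAX, and for TGATGNAA, the letters of the element bound by ATF4 with C/EBP factors. RefSeq (GRCm38.p6) gave 8 promoters of 7 of the 10 genes, each from 250 bases before to 50 after the transcript start. CACGTG stood in a promoter of Sms, 196 bases before the start, and in that of Enoph1, 11 bases after it, against 7.15% of all 32851 promoters of that length. The other Sms promoter did not hold it, and Azin1, Srm and Adi1 had no promoter to search. TGATGNAA stood in none of the 8, against 3.97% of all, which says only that these letters are not in these windows. The 250 bases before the start are shown for Sms (chrX:157492288-157492537, minus strand), where the capitals mark CACGTG, and for Sat1 (chrX:155216450-155216699, minus strand) and Apip (chr2:103073425-103073674, plus strand), the genes with the widest differences between lines, which hold neither motif.
Sms: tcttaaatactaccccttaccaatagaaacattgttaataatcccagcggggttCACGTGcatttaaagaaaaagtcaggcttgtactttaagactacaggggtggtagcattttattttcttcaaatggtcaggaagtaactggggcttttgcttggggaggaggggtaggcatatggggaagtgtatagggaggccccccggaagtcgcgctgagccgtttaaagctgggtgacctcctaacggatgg
Sat1: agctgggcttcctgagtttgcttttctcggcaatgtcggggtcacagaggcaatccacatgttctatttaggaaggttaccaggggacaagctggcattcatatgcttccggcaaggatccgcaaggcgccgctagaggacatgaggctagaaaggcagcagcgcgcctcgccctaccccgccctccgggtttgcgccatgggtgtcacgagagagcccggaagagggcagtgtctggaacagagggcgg
Apip: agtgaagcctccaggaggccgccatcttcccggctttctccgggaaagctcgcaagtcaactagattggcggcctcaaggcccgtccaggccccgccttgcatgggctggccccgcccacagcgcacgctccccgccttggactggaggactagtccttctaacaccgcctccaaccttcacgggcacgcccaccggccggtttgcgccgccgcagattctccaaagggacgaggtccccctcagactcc

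To determine how the pathway responded to loss of cysteine and cystine, each deprived line was compared with its own control cultures. Sat1, Azin1 and Apip rose in all 4 lines, Odc1 rose in Myc310, LM1 and LM1-LM, and Amd1, Srm, Sms and Enoph1 fell in all 4. Sat1 rose 1.56-fold in MYAZ16.1e and 4.68-fold in LM1-LM, the widest change of any of the 10 genes in a line. Mri1 fell in the 3 lines of the Myc310 lineage, and Adi1 moved little, higher in MYAZ16.1e and Myc310 and lower in LM1-LM.

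Counts were tested with edgeR's quasi-likelihood test over 13400 genes in 24 libraries; p-values were adjusted by Benjamini-Hochberg with 0.05 as threshold, and this test stands behind every log2 fold change, standard error (SE) and adjusted p of the deprivation results. In MYAZ16.1e, 4 of the 10 genes were higher and 4 lower, where 53.7% of all genes tested passed the threshold (26.6% higher and 27.1% lower). In Myc310, 5 were higher and 5 lower against 66.8% of all genes (32.8% and 33.9%). LM1 had 4 higher and 5 lower against 71.1% (35.8% and 35.3%), and LM1-LM 4 and 6 against 72.4% (36.5% and 35.9%). Because most genes passed, the counts by themselves say little about these 10. Their median absolute log2 fold change was 0.34 in MYAZ16.1e beside 0.23 over all genes tested, and in the Myc310 lineage it was 0.63 beside 0.37 (Myc310), 0.65 beside 0.45 (LM1) and 0.72 beside 0.48 (LM1-LM).

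**Figure D1:**
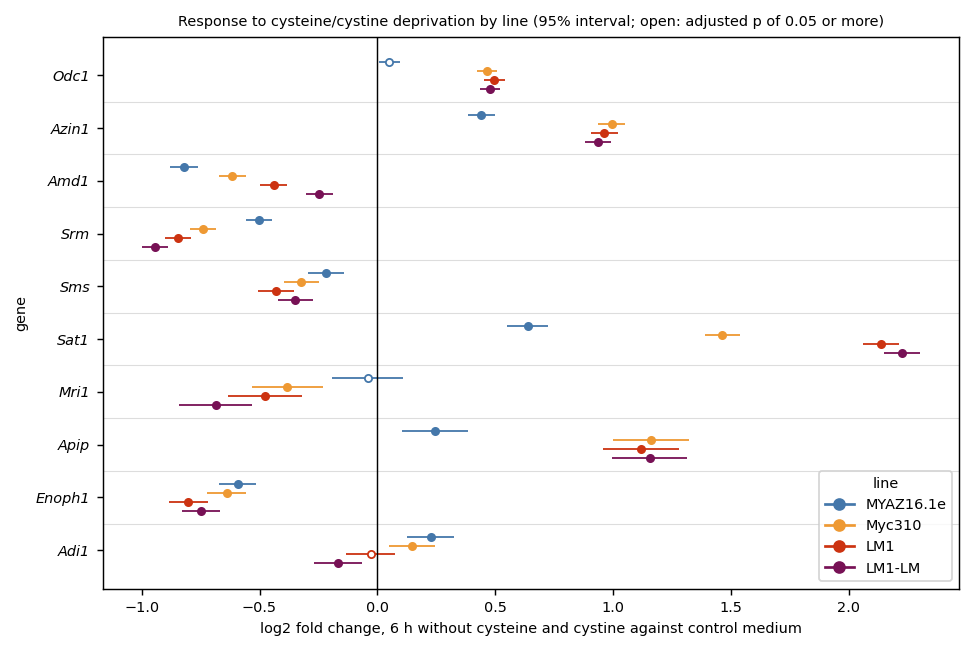
Log2 fold change of each gene (rows) after 6 h without cysteine and cystine against control medium, with its 95% interval, in 4 lines (colours); open points did not pass an adjusted p of 0.05. Sat1, Azin1 and Apip lie to the right of 0 in every line and Amd1, Srm, Sms and Enoph1 to the left, with Sat1 reaching 2.23 in LM1-LM.

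Odc1, the enzyme of the first committed step, barely moved in MYAZ16.1e and rose by a similar amount in the other 3 lines. Odc1 was at 506, 496 and 499.6 CPM in the control cultures of MYAZ16.1e and at 525, 523 and 513 CPM in the deprived ones (log2 fold change 0.05, SE 0.022, adjusted p = 0.053). The deprived cultures were all above the control ones, yet the change did not pass the threshold, although the adjusted p was 0.047 with DESeq2 and 0.047 with the replicate number as a block. In Myc310 the control cultures were at 546, 530.0 and 539 CPM and the deprived cultures at 755, 744 and 752 CPM (log2 fold change 0.47, SE 0.022, adjusted p = 4.8e-18). For Odc1 in LM1, control values of 561, 542 and 556 CPM faced deprived values of 747, 755 and 780.2 CPM (log2 fold change 0.50, SE 0.022, adjusted p = 6.4e-19). LM1-LM showed Odc1 at 591, 593 and 590.3 CPM in control medium and at 798, 789 and 820.0 CPM after 6 h of deprivation (log2 fold change 0.48, SE 0.021, adjusted p = 1.3e-18). In these lines no deprived culture overlapped the control range.

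Azin1, which frees ornithine decarboxylase from antizyme, rose in every line. The MYAZ16.1e cultures held 218, 211 and 217 CPM of Azin1 in control medium and 294, 292 and 295 CPM without cysteine and cystine (log2 fold change 0.44, SE 0.028, adjusted p = 3.7e-14). Myc310 went from 187, 186 and 184 CPM to 383, 373 and 364 CPM (log2 fold change 0.99, SE 0.028, adjusted p = 2.5e-23). The rise in Myc310 was 1.99-fold against 1.36-fold in MYAZ16.1e. LM1 cultures were at 307, 305 and 314 CPM in control and 588, 592 and 583 CPM in deprived medium (log2 fold change 0.96, SE 0.027, adjusted p = 1.5e-23). In LM1-LM the level of Azin1 moved from 304, 332 and 335 CPM to 617, 596 and 598 CPM (log2 fold change 0.94, SE 0.027, adjusted p = 2.1e-23). LM1 and LM1-LM started from higher levels than Myc310 and also ended higher.

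Amd1, which supplies the aminopropyl donor, fell in every line, by the most in MYAZ16.1e. In control medium Amd1 stood at 273, 268 and 281 CPM in MYAZ16.1e, and without cysteine and cystine at 156, 158 and 154 CPM (log2 fold change -0.82, SE 0.029, adjusted p = 1.4e-20). Values of 323, 309 and 312 CPM in Myc310 changed to 209, 211 and 202 CPM (log2 fold change -0.62, SE 0.028, adjusted p = 2.9e-18). The deprived cultures of Myc310 remained above those of MYAZ16.1e. LM1 had 320.1, 319 and 302 CPM in control medium and 232, 224 and 221 CPM after deprivation (log2 fold change -0.44, SE 0.028, adjusted p = 7.0e-15). Cultures of LM1-LM were at 308, 303 and 295 CPM in control medium, and deprived ones at 241, 254 and 249 CPM (log2 fold change -0.25, SE 0.028, adjusted p = 2.8e-09). The fall was 1.77-fold in MYAZ16.1e and 1.19-fold in LM1-LM. Adding the counts of the near-identical copies, an alternative chosen after the data were seen, left the change at -0.82 in MYAZ16.1e and -0.25 in LM1-LM.

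Srm, spermidine synthase, also fell in every line, but in the opposite order of lines. Control cultures of MYAZ16.1e had Srm at 309, 309 and 314 CPM, deprived ones at 220.2, 222 and 218 CPM (log2 fold change -0.50, SE 0.027, adjusted p = 5.9e-16). The corresponding Myc310 cultures were at 367, 359.9 and 356 CPM and 219, 209 and 225 CPM (log2 fold change -0.74, SE 0.027, adjusted p = 1.2e-20). Myc310 began higher than MYAZ16.1e and ended at a similar level. In LM1, Srm was at 390.4, 389.9 and 389 CPM with and 208, 217 and 209.8 CPM without the amino acids (log2 fold change -0.85, SE 0.027, adjusted p = 2.7e-22). LM1-LM gave 410.1, 406 and 390.4 CPM in control and 197, 208 and 206 CPM in deprived cultures (log2 fold change -0.94, SE 0.027, adjusted p = 1.4e-23). After deprivation all 12 cultures lay between 197 and 225 CPM, whereas in control medium the lines ranged from 309 to 410.1 CPM.

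Sms, spermine synthase, fell in all 4 lines by a smaller fold than Srm. Sms was at 125, 133 and 135 CPM in the control cultures of MYAZ16.1e and at 115, 111 and 113 CPM in the deprived ones (log2 fold change -0.22, SE 0.038, adjusted p = 1.3e-05). In Myc310 the control cultures were at 161, 159 and 158 CPM and the deprived cultures at 132, 132 and 122 CPM (log2 fold change -0.32, SE 0.037, adjusted p = 5.5e-09). The control and deprived ranges did not overlap in either line. For Sms in LM1, control values of 177, 162 and 166 CPM faced deprived values of 122, 124 and 118 CPM (log2 fold change -0.43, SE 0.037, adjusted p = 1.1e-11). LM1-LM showed Sms at 167, 177 and 182 CPM in control medium and at 137, 129 and 137 CPM after 6 h of deprivation (log2 fold change -0.35, SE 0.037, adjusted p = 7.5e-10). In MYAZ16.1e the fall was 1.16-fold and in LM1 1.35-fold.

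Sat1, the acetyltransferase that starts polyamine breakdown and export, rose in every line, and in Myc310, LM1 and LM1-LM by more than any other of the 10 genes. The MYAZ16.1e cultures held 71.4, 69.6 and 74.2 CPM of Sat1 in control medium and 111, 111 and 115 CPM without cysteine and cystine (log2 fold change 0.64, SE 0.042, adjusted p = 8.3e-14). Myc310 went from 167, 166 and 164 CPM to 462, 474 and 447 CPM (log2 fold change 1.46, SE 0.037, adjusted p = 9.7e-25). The lowest deprived culture of Myc310 was far above the highest of MYAZ16.1e. LM1 cultures were at 129, 125 and 118 CPM in control and 524, 522 and 548 CPM in deprived medium (log2 fold change 2.14, SE 0.038, adjusted p = 9.4e-29). In LM1-LM the level of Sat1 moved from 125, 114 and 107 CPM to 534, 527 and 518 CPM (log2 fold change 2.23, SE 0.038, adjusted p = 3.0e-29). LM1 and LM1-LM started below Myc310 and ended above it.

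**Figure D2:**
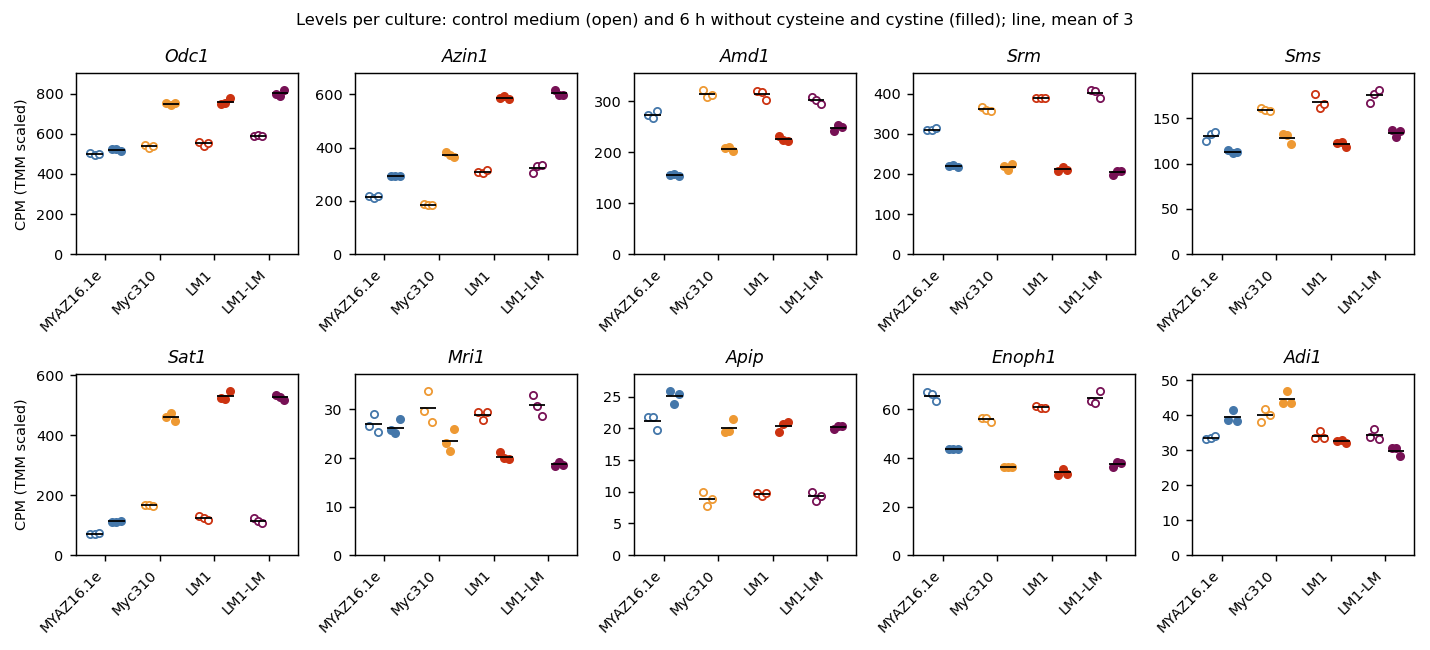
Level of each gene (panels, CPM) in the 3 control cultures (open) and 3 deprived cultures (filled) of 4 lines, with the mean as a bar. Sat1 in LM1 and LM1-LM goes from at most 129 CPM to at least 518 CPM, and Apip in the Myc310 lineage from at most 10.0 CPM to at least 19.4 CPM.

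The 4 genes of methionine salvage did not move in one direction. Apip, the dehydratase of the pathway, rose 2.17- to 2.24-fold in Myc310, LM1 and LM1-LM, Enoph1 fell in all 4 lines, Mri1 fell in 3, and Adi1 changed by at most 1.17-fold.

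Mri1 isomerises methylthioribose 1-phosphate, the product of MTAP. In control medium Mri1 stood at 26.7, 29.02 and 25.3 CPM in MYAZ16.1e, and without cysteine and cystine at 25.7, 25.1 and 28.0 CPM (log2 fold change -0.04, SE 0.073, adjusted p = 0.68). Here the control and deprived ranges overlapped, and the direction turned when the second cultures were left out (0.04). Values of 29.7, 33.9 and 27.5 CPM in Myc310 changed to 23.0, 21.4 and 26.0 CPM (log2 fold change -0.38, SE 0.074, adjusted p = 3.6e-05). LM1 had 29.5, 27.8 and 29.4 CPM in control medium and 21.1, 19.9 and 19.8 CPM after deprivation (log2 fold change -0.48, SE 0.076, adjusted p = 2.1e-06). Cultures of LM1-LM were at 32.9, 30.8 and 28.7 CPM in control medium, and deprived ones at 18.3, 19.3 and 18.5 CPM (log2 fold change -0.69, SE 0.076, adjusted p = 1.9e-09). In these 3 lines every deprived culture was below every control culture.

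Apip acts next. Control cultures of MYAZ16.1e had Apip at 21.8, 21.8 and 19.8 CPM, deprived ones at 26.0, 23.8 and 25.4 CPM (log2 fold change 0.25, SE 0.069, adjusted p = 0.0032). The rise in MYAZ16.1e no longer passed the threshold without the cultures numbered 3 (adjusted p = 0.12). The corresponding Myc310 cultures were at 10.0, 7.74 and 8.92 CPM and 19.4, 19.5 and 21.4 CPM (log2 fold change 1.16, SE 0.078, adjusted p = 4.7e-14). In LM1, Apip was at 9.80, 9.35 and 9.76 CPM with and 19.4, 20.7 and 21.0 CPM without the amino acids (log2 fold change 1.12, SE 0.079, adjusted p = 8.9e-14). LM1-LM gave 9.94, 8.60 and 9.33 CPM in control and 19.9, 20.3 and 20.3 CPM in deprived cultures (log2 fold change 1.16, SE 0.078, adjusted p = 2.9e-14). After deprivation the 3 lines of the Myc310 lineage lay at 19.4 to 21.4 CPM, a range that overlaps the 19.8 to 21.8 CPM of MYAZ16.1e in control medium.

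Enoph1, the enolase-phosphatase, fell by 1.51- to 1.74-fold. Enoph1 was at 67.0, 66.2 and 63.7 CPM in the control cultures of MYAZ16.1e and at 43.6, 43.8 and 43.6 CPM in the deprived ones (log2 fold change -0.59, SE 0.039, adjusted p = 5.6e-14). In Myc310 the control cultures were at 56.6, 56.4 and 54.8 CPM and the deprived cultures at 36.2, 36.1 and 36.4 CPM (log2 fold change -0.64, SE 0.040, adjusted p = 7.7e-15). For Enoph1 in LM1, control values of 61.4, 60.4 and 60.7 CPM faced deprived values of 32.9, 35.6 and 33.6 CPM (log2 fold change -0.80, SE 0.040, adjusted p = 2.7e-17). In each line the deprived cultures were clear of the control ones. LM1-LM showed Enoph1 at 63.4, 62.6 and 67.8 CPM in control medium and at 36.3, 38.3 and 37.7 CPM after 6 h of deprivation (log2 fold change -0.75, SE 0.039, adjusted p = 6.5e-17).

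Adi1, the dioxygenase that forms the keto acid of methionine, showed small changes of either sign. The MYAZ16.1e cultures held 33.2, 33.6 and 34.0 CPM of Adi1 in control medium and 38.7, 41.4 and 38.4 CPM without cysteine and cystine (log2 fold change 0.23, SE 0.049, adjusted p = 2.1e-04). Myc310 went from 38.1, 41.8 and 39.95 CPM to 43.5, 47.0 and 43.4 CPM (log2 fold change 0.15, SE 0.047, adjusted p = 0.0071). The latter rise was lost when the first cultures were left out (adjusted p = 0.073). LM1 cultures were at 33.5, 35.5 and 33.4 CPM in control and 32.8, 32.9 and 32.2 CPM in deprived medium (log2 fold change -0.03, SE 0.050, adjusted p = 0.63). In LM1-LM the level of Adi1 moved from 33.9, 36.0 and 33.2 CPM to 30.7, 30.5 and 28.3 CPM (log2 fold change -0.17, SE 0.050, adjusted p = 0.0038).

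Whether the more metastatic lines responded differently from MYAZ16.1e was tested as the difference between the log2 fold changes, in the same edgeR model with Benjamini-Hochberg adjustment. Odc1, Azin1, Sat1 and Apip rose more in Myc310, LM1 and LM1-LM than in MYAZ16.1e, Amd1 fell less, and Srm and Mri1 fell more. For Myc310, 5 of the 10 responses were higher and 2 lower, where 40.3% of all genes differed (19.8% higher and 20.4% lower). For LM1 and for LM1-LM, 5 were higher and 5 lower, where 52.2% (26.9% and 25.3%) and 54.8% (28.4% and 26.4%) of all genes differed. The deprived and control cultures of MYAZ16.1e enter all 3 comparisons, which therefore share samples, and the lines of the Myc310 lineage were not tested against each other.

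For Sat1 the response exceeded that of MYAZ16.1e by 0.83 (SE 0.056, adjusted p = 8.6e-13) in Myc310, by 1.50 (SE 0.057, adjusted p = 3.4e-19) in LM1 and by 1.59 (SE 0.057, adjusted p = 5.6e-20) in LM1-LM, on the log2 scale. The Apip response exceeded it by 0.92 (SE 0.10, adjusted p = 2.7e-08), 0.87 (SE 0.10, adjusted p = 2.8e-08) and 0.91 (SE 0.10, adjusted p = 9.4e-09) in the same order of lines. For Sat1 the excess was smaller in Myc310 than in the other lines, and for Apip the 3 values lay within 1 SE of each other. The excess of Azin1 was 0.55 (SE 0.040, adjusted p = 3.0e-12) in Myc310 and 0.50 (SE 0.039, adjusted p = 3.6e-12) in LM1-LM, and that of Odc1 was 0.42 (SE 0.031, adjusted p = 4.7e-12) in Myc310 and 0.45 (SE 0.031, adjusted p = 2.4e-13) in LM1. For both genes the remaining line lay close to these values.

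The Amd1 response was less negative than in MYAZ16.1e by 0.20 (SE 0.040, adjusted p = 1.2e-04) in Myc310, 0.38 (SE 0.040, adjusted p = 2.1e-09) in LM1 and 0.57 (SE 0.040, adjusted p = 2.2e-13) in LM1-LM. Srm went the other way, at -0.24 (SE 0.038, adjusted p = 7.7e-06), -0.34 (SE 0.038, adjusted p = 6.0e-09) and -0.44 (SE 0.038, adjusted p = 2.8e-11). These genes of consecutive steps therefore took opposite places relative to MYAZ16.1e, with Amd1 retained more and Srm less in the Myc310 lineage. Mri1 differed by -0.34 (SE 0.10, adjusted p = 0.0090) in Myc310 and -0.65 (SE 0.11, adjusted p = 4.9e-06) in LM1-LM, the former lost without the first or without the second cultures (largest adjusted p = 0.073). Sms fell more than in MYAZ16.1e in LM1, by -0.21 (SE 0.053, adjusted p = 0.0012), and in LM1-LM, by -0.13 (SE 0.053, adjusted p = 0.039), whereas in Myc310 the difference of -0.10 had a 95% interval of -0.21 to 0.0044 and did not pass (adjusted p = 0.12). The Sms difference in LM1 was lost without the first cultures (adjusted p = 0.057), and that in LM1-LM without the cultures numbered 2 or 3 or with Sms-ps and Gm6292 counts added (largest adjusted p = 0.20).

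Enoph1 and Adi1 differed from MYAZ16.1e in LM1 and LM1-LM by small amounts. The Enoph1 difference was -0.21 (SE 0.056, adjusted p = 0.0022) in LM1 and -0.16 (SE 0.055, adjusted p = 0.017) in LM1-LM, the latter lost without the cultures numbered 1 or 3 and without the filter on low counts (largest adjusted p = 0.26). For Myc310 it was -0.05, with a 95% interval of -0.16 to 0.07. The Adi1 difference was -0.26 (SE 0.070, adjusted p = 0.0027) in LM1, lost without the second cultures (adjusted p = 0.0504), and -0.39 (SE 0.070, adjusted p = 1.6e-05) in LM1-LM. In Myc310 it was -0.08, with an interval of -0.22 to 0.06.

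Next, 20 other genes of polyamine and methylthioadenosine metabolism were examined, of which 14 passed the filter on low counts in the deprivation model. By the same edgeR test, 5 were higher and 6 lower in MYAZ16.1e, 4 and 9 in Myc310, 4 and 7 in LM1, and 4 and 9 in LM1-LM. These counts stand beside 53.7%, 66.8%, 71.1% and 72.4% of all genes tested that passed in the lines in that order, and the 11 of 14 genes in LM1 lay near that share. Oaz2, Azin2, Smox and Atp13a3 rose in all 4 lines, and Oaz1, Amd2, Mtap, Dohh, Eif5a and Eif5a2 fell in all 4. The median log2 fold change of the 14 genes in MYAZ16.1e was 0.02, and for Myc310, LM1 and LM1-LM it was -0.36, -0.19 and -0.18, where the medians of all genes tested were between -0.01 and 0.

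Mtap, the phosphorylase that opens methionine salvage by cleaving methylthioadenosine, had in every line a lower log2 fold change than any of the 4 later salvage genes. In control medium Mtap stood at 307, 293 and 300.2 CPM in MYAZ16.1e, and without cysteine and cystine at 191, 188 and 177 CPM (log2 fold change -0.70, SE 0.027, adjusted p = 2.4e-19). Values of 473, 482 and 505 CPM in Myc310 changed to 237, 241 and 237 CPM (log2 fold change -1.04, SE 0.027, adjusted p = 1.7e-24). LM1 had 458, 455 and 449 CPM in control medium and 149, 153 and 149 CPM after deprivation (log2 fold change -1.56, SE 0.028, adjusted p = 9.6e-29). Cultures of LM1-LM were at 437, 439.9 and 435 CPM in control medium, and deprived ones at 133, 135 and 131 CPM (log2 fold change -1.68, SE 0.028, adjusted p = 1.7e-29). The level in LM1-LM dropped 3.21-fold against 1.63-fold in MYAZ16.1e, and the response differed from that of MYAZ16.1e by -0.34 (SE 0.038, adjusted p = 1.8e-08) in Myc310, -0.86 (SE 0.039, adjusted p = 1.7e-17) in LM1 and -0.98 (SE 0.039, adjusted p = 6.6e-19) in LM1-LM. Mtap and Enoph1 therefore fell, and Apip rose, within one pathway.

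Antizyme 1 (Oaz1), which binds ornithine decarboxylase and sends it to the proteasome, fell in all 4 lines, with log2 fold changes of -0.28, -0.38, -0.14 and -0.10, the first for MYAZ16.1e and the others for Myc310, LM1 and LM1-LM in turn. Its paralog Oaz2 rose, with log2 fold changes of 0.21, 0.24, 0.57 and 0.64. Azin2, another antizyme inhibitor of low level here, rose, with log2 fold changes of 0.76, 1.25, 0.85 and 0.51. The inhibitors Azin1 and Azin2 thus rose in all 4 lines, while the antizymes Oaz1 and Oaz2 moved in opposite directions. Smox, which oxidises spermine back to spermidine, rose, with log2 fold changes of 0.71, 0.65, 1.08 and 0.99, from 14.3, 14.9 and 13.0 CPM to 30.1, 28.4 and 28.7 CPM in LM1. Atp13a3, a polyamine transporter of endosomal membranes, rose, with log2 fold changes of 0.08, 0.31, 0.53 and 0.56. The copy Amd2 fell, with log2 fold changes of -0.85, -0.53, -0.43 and -0.25, values close to those of Amd1, from which its reads cannot be fully separated.

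Spermidine is also the donor for hypusine, the modified lysine of EIF5A, which DHPS and DOHH make in turn. Dohh fell, with log2 fold changes of -0.61, -1.02, -1.14 and -1.22, and the change in LM1-LM exceeded that in MYAZ16.1e by -0.61 (SE 0.072, adjusted p = 1.9e-08). Eif5a itself moved by -0.19, -0.17, -0.08 and -0.08 and its paralog Eif5a2 by -0.64, -1.42, -1.85 and -1.47. Dhps did not pass the threshold in any line, at 0.01, 0.05, 0.11 and 0.08. Agmat, Oaz3 and Satl1 had at most 3 counts in any library, and Slc18b1, a vesicular polyamine transporter, at most 10 in deprived or control cultures of MYAZ16.1e and at most 1 in those of Myc310, LM1 and LM1-LM.

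**Figure D3:**
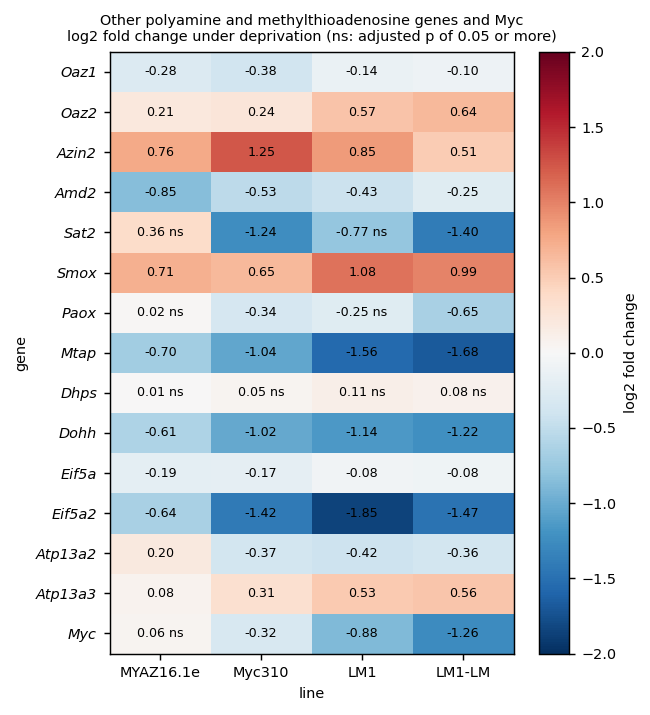
Log2 fold change after deprivation for 14 other genes of polyamine and methylthioadenosine metabolism and for Myc (rows) in 4 lines (columns), as colour and number; ns marks an adjusted p of 0.05 or more. Mtap runs from -0.70 in MYAZ16.1e to -1.68 in LM1-LM, and Smox is positive in all 4 lines.

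Since Odc1 is a classical MYC target, Myc is given beside it. Myc, counted over the endogenous gene and any reads of the transgene that match it, was at 409, 426 and 429 CPM in control and 444, 441 and 436 CPM in deprived MYAZ16.1e cultures (log2 fold change 0.06, SE 0.035, adjusted p = 0.18). In LM1-LM it went from 1102, 1078 and 1042 CPM to 446, 447 and 420.2 CPM (log2 fold change -1.26, SE 0.035, adjusted p = 5.8e-24), and in Myc310 and LM1 the log2 fold changes were -0.32 and -0.88. In those 3 lines Myc fell while Odc1 rose. In control medium the line means of Myc and of Odc1 were both higher in the Myc310 lineage than in MYAZ. The part of MYC in the levels of Odc1 was not tested.

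In control medium, the 10 genes were compared between subtypes to see which differed with metastatic potential before any deprivation. Sat1, Sms, Srm, Odc1 and Amd1 were higher, and Apip lower, in Myc310, LM and LM-LM than in MYAZ, while Azin1, Mri1, Enoph1 and Adi1 did not pass the test at an adjusted p of 0.05. Sat1 was 2.25-fold higher in LM and Apip 1.97-fold lower. Over the 13795 genes and 30 libraries of edgeR's quasi-likelihood test, with subtype as the only term, 5 of the 10 genes were higher and 1 lower in each comparison, against 50.9% of all genes for Myc310 (23.8% higher and 27.1% lower), 60.8% for LM (30.3% and 30.5%) and 62.8% for LM-LM (30.5% and 32.3%). When the counts of the 3 cultures were first summed, so that each line was 1 sample, 1 gene was higher and none lower for Myc310, 2 and 1 for LM, and 4 and 1 for LM-LM, against 8.92% (4.72% and 4.2%), 23.6% (11.3% and 12.4%) and 26.4% (12.8% and 13.6%) of all genes. The adjusted p with summed counts is given as the line-level p beside each result. Since Myc310 is then 1 sample, its line-level p takes the spread from the other subtypes and assumes that Myc310 varies as they do. With 6 of 10 called, the share of these genes was near that of all genes, and their median absolute log2 fold change, 0.24 for Myc310, 0.18 for LM and 0.24 for LM-LM, was below the 0.35, 0.31 and 0.33 of all genes. Metastatic potential cannot be told apart from descent from Myc310, since the lines of Myc310, LM and LM-LM share that origin, and the line-level tests treat them as separate samples. All 3 comparisons share the MYAZ libraries, and the control cultures of 4 lines also serve the deprivation comparisons.

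Sat1 had the widest spread of the 10 genes in control medium, 3.24-fold from MYAZ12.3i to LM3-LM. The MYAZ lines averaged 72.3 ± 15.1 CPM (SD over 3 lines), Myc310 166 CPM (1 line), the LM lines 162 ± 33.4 CPM and the LM-LM lines 149 ± 35.7 CPM (SD over 3 lines each). The 3 MYAZ lines were the lowest of the 10. MYAZ12.3i cultures were at 58.1, 55.9 and 58.5 CPM, MYAZ6.6g cultures at 85.9, 87.6 and 89.5 CPM and LM3-LM cultures at 174, 197 and 188 CPM. The order of line means was MYAZ12.3i, MYAZ16.1e, MYAZ6.6g, LM1-LM, LM1, LM2-LM, Myc310, LM3, LM2 and LM3-LM, and the neighbours LM1-LM and LM1, and LM2 and LM3-LM, overlapped in their cultures. LM1 and LM1-LM, which showed the widest Sat1 response under deprivation, were thus the lowest of the Myc310 lineage. Sat1 was higher in Myc310 (log2 fold change 1.19, SE 0.17, adjusted p = 9.2e-07, line-level adjusted p = 0.047), LM (log2 fold change 1.17, SE 0.13, adjusted p = 4.4e-09, line-level adjusted p = 0.0087) and LM-LM (log2 fold change 1.02, SE 0.13, adjusted p = 4.8e-08, line-level adjusted p = 0.013).

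Apip was the gene with the opposite order. The MYAZ lines averaged 17.8 ± 3.46 CPM (SD over 3 lines), Myc310 8.90 CPM (1 line), the LM lines 9.01 ± 1.14 CPM and the LM-LM lines 9.44 ± 0.543 CPM (SD over 3 lines each). Every culture of the Myc310 lineage was below every MYAZ culture. MYAZ12.3i cultures were at 15.5, 13.3 and 13.8 CPM and MYAZ6.6g cultures at 16.8, 19.1 and 18.3 CPM, against 7.83, 7.58 and 7.68 CPM in LM3, the lowest line, and 9.18, 10.3 and 10.6 CPM in LM3-LM. Neighbours among the 7 lines of the Myc310 lineage overlapped in their cultures. Apip was lower in Myc310 (log2 fold change -1.004, SE 0.14, adjusted p = 6.5e-07, line-level adjusted p = 0.052), LM (log2 fold change -0.98, SE 0.093, adjusted p = 2.6e-10, line-level adjusted p = 0.0057) and LM-LM (log2 fold change -0.93, SE 0.093, adjusted p = 6.9e-10, line-level adjusted p = 0.0067), and with summed counts the Myc310 difference did not pass.

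Sms and Srm, the aminopropyl transferases, were both higher outside MYAZ. For Sms, the MYAZ lines averaged 109.7 ± 21.4 CPM (SD over 3 lines), Myc310 159 CPM (1 line), the LM lines 166 ± 2.22 CPM and the LM-LM lines 178 ± 6.10 CPM (SD over 3 lines each). MYAZ12.3i was lowest at 90.5, 83.9 and 89.9 CPM and LM2-LM highest at 189, 180.4 and 186 CPM, a span of 2.10-fold, and the highest MYAZ culture, at 135 CPM in MYAZ16.1e, was below the lowest of the lineage. Sms was higher in Myc310 (log2 fold change 0.53, SE 0.089, adjusted p = 1.2e-05, line-level adjusted p = 0.084), LM (log2 fold change 0.60, SE 0.065, adjusted p = 4.5e-09, line-level adjusted p = 0.0097) and LM-LM (log2 fold change 0.68, SE 0.065, adjusted p = 3.1e-10, line-level adjusted p = 0.0050). For Srm, the MYAZ lines averaged 277 ± 32.96 CPM (SD over 3 lines), Myc310 361 CPM (1 line), the LM lines 358 ± 38.9 CPM and the LM-LM lines 383 ± 53.6 CPM (SD over 3 lines each). Srm was lowest in MYAZ12.3i, at 234, 255 and 245 CPM, and highest in LM2-LM, at 436, 418 and 419 CPM, with LM2 at 296, 331 and 317 CPM overlapping the MYAZ16.1e cultures. It was higher in Myc310 (log2 fold change 0.38, SE 0.093, adjusted p = 0.0013, line-level adjusted p = 0.19), LM (log2 fold change 0.37, SE 0.068, adjusted p = 2.4e-05, line-level adjusted p = 0.057) and LM-LM (log2 fold change 0.45, SE 0.068, adjusted p = 1.3e-06, line-level adjusted p = 0.026), and the line-level p passed the threshold in LM-LM alone.

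Odc1 and Amd1 showed smaller differences. For Odc1, the MYAZ lines averaged 462 ± 36.8 CPM (SD over 3 lines), Myc310 538 CPM (1 line), the LM lines 532 ± 22.9 CPM and the LM-LM lines 571 ± 61.3 CPM (SD over 3 lines each). MYAZ12.3i cultures were at 427, 429.6 and 426 CPM and LM2-LM cultures at 622, 619.7 and 617 CPM, while LM2, at 488, 530.2 and 504 CPM, and LM3-LM, at 489.9, 526 and 490.1 CPM, overlapped MYAZ16.1e. Odc1 was higher in Myc310 (log2 fold change 0.22, SE 0.063, adjusted p = 0.0048, line-level adjusted p = 0.27), LM (log2 fold change 0.20, SE 0.045, adjusted p = 2.5e-04, line-level adjusted p = 0.11) and LM-LM (log2 fold change 0.29, SE 0.045, adjusted p = 2.3e-06, line-level adjusted p = 0.034). For Amd1, the MYAZ lines averaged 264 ± 25.8 CPM (SD over 3 lines), Myc310 315 CPM (1 line), the LM lines 288 ± 22.3 CPM and the LM-LM lines 306 ± 36.9 CPM (SD over 3 lines each). The Amd1 level of every Myc310 culture was above that of every MYAZ culture, but LM and LM-LM overlapped MYAZ, with MYAZ6.6g at 272, 295 and 281 CPM lying above LM3-LM at 268, 279 and 269 CPM in its mean. Amd1 passed in Myc310 (log2 fold change 0.25, SE 0.075, adjusted p = 0.0066, line-level adjusted p = 0.28), LM (log2 fold change 0.13, SE 0.054, adjusted p = 0.044, line-level adjusted p = 0.35) and LM-LM (log2 fold change 0.20, SE 0.054, adjusted p = 0.0022, line-level adjusted p = 0.15), but no line-level p did, and in LM it passed in 6 of 15 alternatives and was lost without LM1 and without MYAZ12.3i, among others. The LM-LM difference was lost without LM2-LM or MYAZ12.3i, and the Myc310 difference without the first cultures (lowest log2 fold changes 0.11 and 0.17).

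**Figure D4:**
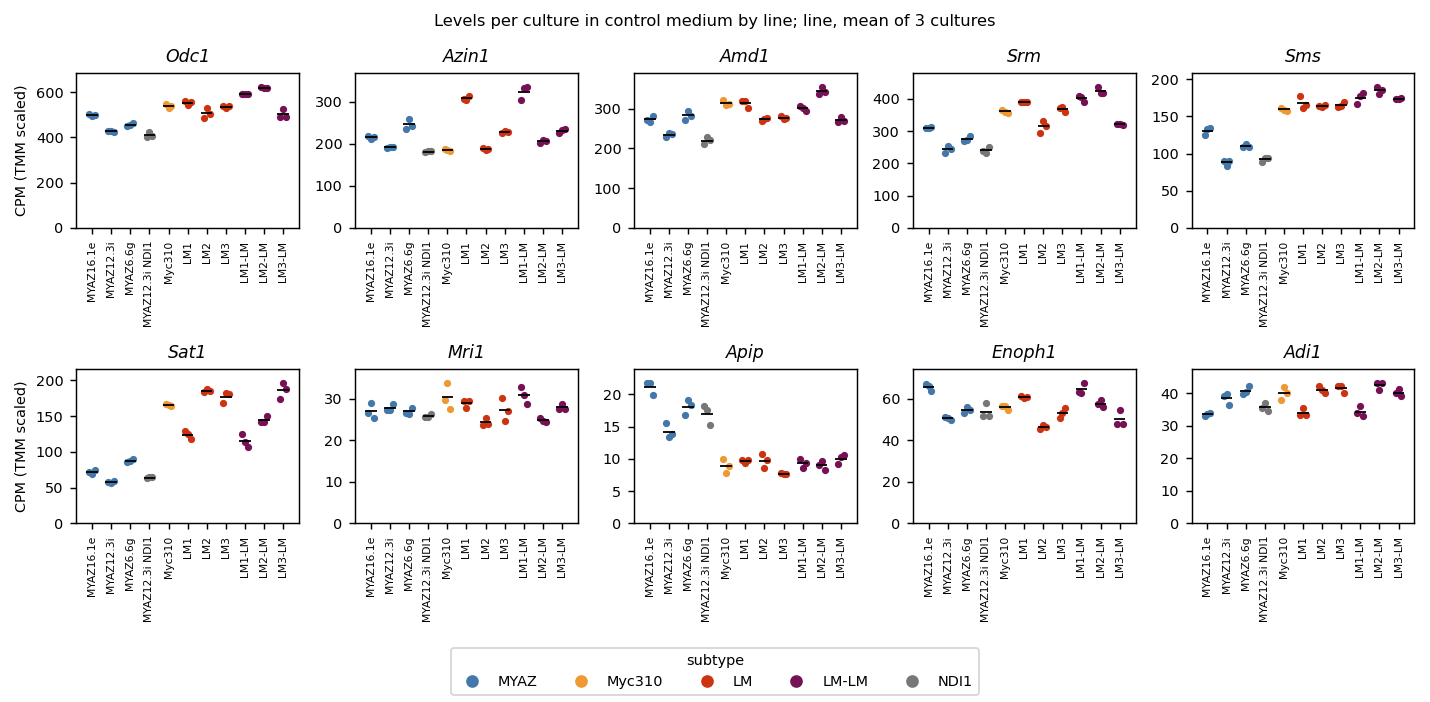
Level of each gene (panels, CPM) in the 3 control-medium cultures of each line, coloured by subtype, with the mean as a bar. The MYAZ lines are the lowest for Sat1 and Sms and the highest for Apip, and the NDI1 line lies near its parent MYAZ12.3i.

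The remaining 4 genes differed among lines without following the subtypes. Azin1 was highest in LM1-LM, at 304, 332 and 335 CPM, and LM1, at 307, 305 and 314 CPM, and lowest in their ancestor Myc310, at 187, 186 and 184 CPM. Its log2 fold changes against MYAZ were -0.24 in Myc310 (95% interval -0.57 to 0.10), 0.15 in LM (-0.08 to 0.38) and 0.20 in LM-LM (-0.03 to 0.43). LM2-LM, at 201, 209 and 207 CPM, and LM3-LM, at 226, 232 and 234 CPM, were below LM1 and LM1-LM, and LM2 stood at 191, 186 and 187 CPM. Without LM1 the LM value turned to -0.05 and without LM2 it passed the test (0.29, adjusted p = 0.028), and the LM-LM value turned to -0.01 without LM1-LM and passed without LM2-LM or MYAZ6.6g (lowest adjusted p = 0.015). Mri1 line means spanned 1.26-fold, Adi1 1.27-fold and Enoph1 1.41-fold. Enoph1 was lowest in LM2, at 45.6, 47.5 and 46.5 CPM, and highest in MYAZ16.1e, at 67.0, 66.2 and 63.7 CPM. Adi1 was lowest in MYAZ16.1e, at 33.2, 33.6 and 34.0 CPM, followed by LM1 and LM1-LM. Adi1 (0.15, adjusted p = 0.048) and Enoph1 (-0.18, adjusted p = 0.0496) passed the test in LM once LM1 was left out.

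Of 15 other pathway genes tested with counts summed per line, 1 was higher and none lower in Myc310 than in MYAZ, 2 were higher and 2 lower in LM, and 2 and 1 in LM-LM, near the 8.92%, 23.6% and 26.4% of all genes that passed in these comparisons. Mtap, Dhps and Slc18b1 passed in both LM and LM-LM. Mtap averaged 257 ± 43.2 CPM in MYAZ, 487 CPM in Myc310, 409 ± 39.0 CPM in LM and 424 ± 16.3 CPM in LM-LM, and was higher in LM (log2 fold change 0.67, SE 0.061, adjusted p = 1.2e-10, line-level adjusted p = 0.0048) and LM-LM (log2 fold change 0.70, SE 0.061, adjusted p = 4.1e-11, line-level adjusted p = 0.0035). Dhps, at 32.8 ± 2.52 CPM in MYAZ and 42.4 ± 2.28 CPM in LM-LM, was higher in LM-LM (log2 fold change 0.35, SE 0.058, adjusted p = 5.4e-06, line-level adjusted p = 0.034) and LM (log2 fold change 0.33, SE 0.058, adjusted p = 1.3e-05, line-level adjusted p = 0.045). Slc18b1 had 36 to 48 counts per library in MYAZ12.3i and 41 to 56 in MYAZ6.6g, but 3 to 4 in MYAZ16.1e and at most 3 in any library of the Myc310 lineage, so its difference rests on MYAZ lines other than MYAZ16.1e. Smox and Oaz1 passed no line-level test, with line-level p-values of 0.26 and 0.17 in LM. Myc averaged 530.1 ± 94.4 CPM in MYAZ and 998 ± 173 CPM in LM (log2 fold change 0.91, SE 0.12, adjusted p = 7.3e-08, line-level adjusted p = 0.015).

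The MYAZ12.3i cells labelled NDI1, the name of a yeast NADH dehydrogenase, were compared with their parent in 6 libraries by the same edgeR test over 12841 genes. Only small differences were found, with Sat1 higher and Amd1 lower, where 17.4% of all genes passed (8.14% higher and 9.27% lower). Sat1 was at 63.4, 64.3 and 64.5 CPM in the NDI1 cultures (log2 fold change 0.15, SE 0.039, adjusted p = 0.015), against 58.1, 55.9 and 58.5 CPM in the parent. Amd1 was at 210.4, 228 and 220.2 CPM (log2 fold change -0.10, SE 0.031, adjusted p = 0.038), against 229.7, 238 and 236 CPM. Neither call held when any 1 of the replicate numbers was left out. The largest estimate was that of Apip (log2 fold change 0.25, SE 0.086, adjusted p = 0.059), at 18.1, 17.6 and 15.2 CPM against 15.5, 13.3 and 13.8 CPM, which passed with no filter beyond 1 count, with the replicate block or with all 33 control libraries (lowest adjusted p = 0.029). None of the other 7 passed, with log2 fold changes of -0.06 for Odc1, -0.08 for Azin1, -0.03 for Srm, 0.06 for Sms, -0.11 for Mri1, 0.09 for Enoph1 and -0.11 for Adi1, and of these Sms passed once the counts of its copies were added (0.10, adjusted p = 0.0497).

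Across the means of the 15 groups, the log2 levels of Odc1 and Sat1 went together (Pearson r = 0.90), as did those of Odc1 and Azin1 (r = 0.84) and of Amd1 and Srm (r = 0.82), while Srm and Apip went in opposite directions (r = -0.86). By ranks (Spearman rho) the same pairs gave 0.75, 0.69, 0.84 and -0.82 in that order. Among the 8962 genes whose log2 CPM averaged 3 or more, the gene most like Odc1 was Clcn3 (r = 0.98), that most like Sat1 was Tmem43 (r = 0.98), and that most like Srm was Nsun5 (r = 0.98). Apip was most like Mex3c (r = 0.97), Sms most like Rpl39 (r = 0.97), Enoph1 most like Pgrmc2 (r = 0.97), Azin1 most like Rab33b (r = 0.96), Mri1 most like Fance (r = 0.96) and Amd1 most like Cks2 (r = 0.95). Adi1 had the weakest partner, Psrc1 (r = 0.84). The 15 groups include related lines and 4 deprived states, which move many genes at once, so these values describe the samples and are given without a test.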

How the data were processed

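Polyadenylated RNA of 45 cultures was sequenced from both ends with a directional library kit. Per the study's methods, the nf-core RNAseq pipeline was run by the authors with its STAR and RSEM options, and the submitters' processing notes name GRCm38, R 4.2.2 and DESeq2 1.38.3; the annotation release is not given in the sources used here. The deposited values are RSEM estimated counts per gene, whole numbers in the file and not normalized, so they needed no rounding. RSEM shares reads between near-identical genes by estimation, which bears on Amd1, Sms and Odc1. Cells had been seeded at 250000 per well and changed after 24 h to control medium or medium without cysteine and cystine for 6 h.

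The tests were run in edgeR 4.0.16 under R 4.3.3, with limma 3.58.1 loaded. After TMM scaling and filtering with filterByExpr, each contrast was tested by edgeR's quasi-likelihood method, two-sided, with Benjamini-Hochberg adjustment over all genes tested and a threshold of 0.05. The deprivation model held 24 libraries in 8 groups of line and medium, the subtype model 30 control libraries with subtype only, as in the study's methods, and the NDI1 model 6 libraries. CPM values were scaled over all 45 libraries, and logarithms of CPM used a prior count of 2. The models were tested on simulated counts. Alternatives were RLE normalization, no filter beyond 1 count, DESeq2 1.42.0, the replicate number as a block, leaving out each replicate number or line, counts summed per line, all 33 control libraries for NDI1, CPM without TMM scaling and, chosen after seeing the data, counts of near-identical copies added.

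The genes and lists were chosen with earlier results of these data known. Named are all 10 genes in every comparison, Myc, the other pathway genes past the threshold in the same direction in all 4 deprived lines or in LM and LM-LM with counts summed per line, Mtap, Oaz1 and Smox, and for each of the 10 the gene with the highest Pearson correlation. Shared windows of 100 bases were searched in the GENCODE transcripts, on the transcript strand, for the 10 genes and not for the wider list. Protein sequences were not used here, 1 listed marker gene is not used here, and 2 of the 20 other pathway genes are not reported here.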

Additional observations from a re-analysis of the deposited data

Results flagged for a closer look

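The 27 differences in response listed here were set apart because the effect of deprivation in a line of the Myc310 lineage differed from that in MYAZ16.1e by the test of the difference itself (edgeR's quasi-likelihood test, Benjamini-Hochberg adjusted p under 0.05). They are given on the log2 scale as the response of the line minus that of MYAZ16.1e, and the same MYAZ16.1e cultures enter all of them.

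The response was higher than in MYAZ16.1e for 5 genes. For Sat1 the difference was 0.83 (Myc310), 1.50 (LM1) and 1.59 (LM1-LM). Apip differed by 0.92 (Myc310), 0.87 (LM1) and 0.91 (LM1-LM), and Azin1 by 0.55 (Myc310), 0.52 (LM1) and 0.50 (LM1-LM). For Odc1 it was 0.42 (Myc310), 0.45 (LM1) and 0.43 (LM1-LM). Amd1, which fell in all lines, differed by 0.20 (Myc310), 0.38 (LM1) and 0.57 (LM1-LM).

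For the other 5 genes the response was lower than in MYAZ16.1e. Srm differed by -0.24 (Myc310), -0.34 (LM1) and -0.44 (LM1-LM), and Mri1 by -0.34 (Myc310), -0.44 (LM1) and -0.65 (LM1-LM). The difference for Sms was -0.21 (LM1) and -0.13 (LM1-LM), that for Enoph1 -0.21 (LM1) and -0.16 (LM1-LM) and that for Adi1 -0.26 (LM1) and -0.39 (LM1-LM). These last 3 genes did not pass in Myc310. Between 40.3% and 54.8% of all genes tested differed from MYAZ16.1e in the same way, and the part of markers of other cell types in these differences was not tested.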

How the results depend on the processing

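With counts summed per line, 1 of the 10 genes was higher and 0 lower in Myc310 than in MYAZ, and 2 were higher in LM; over all genes 1429, 3788 and 4226 passed for Myc310, LM and LM-LM, against 7022, 8385 and 8661 with cultures as samples. In NDI1, 2 of the 10 genes were higher with no filter beyond 1 count, 2 with the replicate block, 2 with all 33 control libraries and 2 with copies added, beside 5.58%, 8.12%, 9.28% and 8.19% of all genes, and 0 were lower with DESeq2 (6.73% of all); leaving out a replicate number gave 0 higher and 0 lower each time, and 898 to 1326 genes over all. Without 1 replicate number, 1 to 2 genes responded lower in Myc310 than in MYAZ16.1e (14.6% to 16.7% of all genes), and 3 to 4 in LM1-LM (at most 22.9%); without 1 line, 1 to 2 were lower in LM (28.3% to 31.9%). The cause was not tested.

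All 20 changes of sign concerned genes that did not pass. Leaving out replicates or lines moved Mri1 between -0.15 and 0.041 (deprivation, MYAZ16.1e), -0.063 and 0.039 (LM) and -0.063 and 0.094 (LM-LM), Enoph1 between -0.11 and 0.083 (Myc310), -0.18 and 0.022 (LM) and -0.095 and 0.11 (LM-LM), Azin1 between -0.053 and 0.29 (LM) and -0.0099 and 0.34 (LM-LM), Adi1 between -0.027 and 0.15 (LM) and -0.041 and 0.12 (LM-LM), and Srm between -0.059 and 0.028 (NDI1). Summed counts gave 0.0011 for Mri1 in LM and 0.019 for Enoph1 in LM-LM, and no filter beyond 1 count gave 0.013 for the latter. Of 1070 alternative values, 1000 kept direction and side of the threshold. Cultures with the same replicate number did not deviate together (r = -0.18 to 0.16 over 12 pairs, -0.27 to 0.25 over 24 pairs with different numbers), so no pairing by number was visible. Such values cannot show whether the cultures were handled in numbered sets. The replicate block gave 7142, 8938, 9494 and 9661 genes under deprivation in MYAZ16.1e and, in order, Myc310, LM1 and LM1-LM, against 7195, 8946, 9524 and 9699 without it. Without TMM scaling no group mean of the 10 genes moved by more than 7.27%. In the deprivation results, Apip and Mri1, with levels under 35 CPM, had the widest standard errors of the 10 genes.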
